A study of Mus musculus with 6 samples.

Results

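The tumor suppressor p53 and 9 genes that it is known to switch on were followed in CT26 tumors of mice treated with H89 or with NaCl. The 10 genes, Trp53 itself with Mdm2, Cdkn1a, Bax, Bbc3, Pmaip1, Ccng1, Sesn1, Phlda3 and Zmat3, were taken by name from the 23557 genes of the deposited table, and each of them was listed there and passed the filter on low counts. CT26 is an established colon carcinoma line that was derived from a BALB/c mouse, and H89 is a small-molecule inhibitor of protein kinase A that also acts on other kinases. Female BALB/c mice aged 7 weeks were given 500000 CT26 cells subcutaneously. Dosing began on day 6 and was repeated 2 times a week by the intraperitoneal route, with 10 mg/kg H89 in the treated group and with NaCl alone in the controls. Bulk RNA of 3 NaCl and 3 H89 tumors, taken on day 14, was sequenced, so every value is a mixture of the implanted cells and of the cells of the host. Both groups therefore share the cell line, the strain and the schedule, and they differ in the agent. The tumors of each group came from 3 mice, so p-values measure the spread between mice.

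Of the 10 genes, Cdkn1a and Bbc3 were lower in H89 tumors, and Trp53 itself was at nearly the same level in both groups. Cdkn1a, which codes for the cell cycle inhibitor p21, was 35.8% lower in mean CPM (counts per 1000000), and Bbc3, which codes for the cell death protein Puma, was 31.2% lower. In bulk tumors, fewer cells of a type and less RNA per cell cannot be told apart. Mdm2, Bax, Pmaip1, Ccng1 and Phlda3 overlapped between the groups. Zmat3 lay lower and Sesn1 higher in all 3 H89 tumors than in any NaCl tumor, but neither passed the test. Such a separation was common, with 10% of all tested genes lower and 20.5% higher in CPM. None of the other 71 p53 pathway genes tested passed the test either, and 1.59% of all tested genes did. With any 1 tumor left out, neither Cdkn1a nor Bbc3 passed.

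The p53 protein is a transcription factor that is held at a low level by Mdm2, a ubiquitin ligase that marks it for destruction and is itself a p53 target. After DNA damage or other stress p53 is stabilised, binds as a tetramer to paired half-sites in DNA and switches on genes that stop the cell cycle, start cell death, repair DNA or limit growth. In tumors this response is a barrier that many cancers lose by mutation of Trp53, and RNA levels of its targets are commonly read as a measure of its activity.

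To show the half-sites near these genes, the stretch of each promoter with a p53 half-site is given first. RefSeq promoter windows for GRCm38.p6, from 250 bases before to 50 bases after each annotated start, were searched for the p53 consensus half-site of 10 bases, whose pattern reads the same on both strands. At least 1 half-site was found in 8.36% of the 32851 windows of all genes. For 8 of the 10 genes 12 windows were used, and 6 of these windows held at least 1 half-site. They are those of Bax, Ccng1, Cdkn1a, Mdm2, Sesn1 and Trp53, and Cdkn1a and Sesn1 each had a further window without one. Only part of each window is printed, 5′ to 3′ on the strand of the gene, and capitals mark the half-site. For Cdkn1a they mark a half-site and, after 12 further bases, a site of 20 bases that joins a pair of half-sites without a spacer and departs from the consensus at 1 base.
Cdkn1a, chr17:29090898-29090977, plus strand: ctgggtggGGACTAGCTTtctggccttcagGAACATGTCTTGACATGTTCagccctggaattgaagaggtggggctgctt
Mdm2, chr10:117710920-117710959, minus strand: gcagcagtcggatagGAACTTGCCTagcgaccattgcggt
Ccng1, chr11:40755447-40755486, minus strand: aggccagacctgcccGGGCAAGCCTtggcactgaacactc
Bax, chr7:45467075-45467114, minus strand: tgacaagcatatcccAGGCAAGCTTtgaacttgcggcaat
Sesn1, chr10:41887251-41887290, plus strand: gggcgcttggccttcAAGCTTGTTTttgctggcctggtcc
Trp53, chr11:69580269-69580308, plus strand: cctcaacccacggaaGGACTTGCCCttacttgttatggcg

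The Cdkn1a sequence is shown because this gene fell, and its 20-base site starts 51 bases before the first annotated start. The half-site before it starts at 73 bases before the same start, and with the first 10 bases of the 20-base site it forms a pair of half-sites that both match the consensus. Such a pair with a spacer of at most 13 bases was found in 24 windows, a share of 0.0731%. A 20-base site with at most 1 base off was found in 18 of the 32851 windows, a share of 0.0548%, and Cdkn1a and Rps27l were the pathway genes among them. Only sites whose middle bases (C, A or T, A or T, G) matched in both half-sites were counted. A second annotated start of Cdkn1a lies 2790 bases further downstream, and its window held no half-site. No half-site was found in the windows of Bbc3 and Phlda3, which says only that these letters are not within those bases. Of the 2 genes that fell, one thus has such sites in its window and the other has none, and of the genes that did not pass the test Bax, Ccng1, Mdm2, Sesn1 and Trp53 have a half-site. A match is a description of the sequence, and no binding was measured here.

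The library totals lay between 27067349 and 31958793 estimated counts, and the 10 genes rested on counts from 31 for the least abundant, Pmaip1, to 9667 for the most abundant, Cdkn1a. The groups were compared with edgeR's quasi-likelihood method over 13118 genes with a mean of at least 0.5 CPM, and p-values were adjusted over all of them with the Benjamini-Hochberg method. Over all of these genes the log2 fold change had a median of 0.0040. Colon epithelial markers were low in these tumors, with Cdh1 at 1.04 to 2.72, Cdx2 at 0.0688 to 0.313 and Vil1 at 0.0717 to 0.188 CPM over both groups. Krt8 overlapped, at 0.148 to 1.33 CPM in NaCl and 0.469 to 2.14 CPM in H89 tumors (log2 fold change 1.03 ± 0.86 SE, edgeR adjusted p = 0.487). The groups were apart for Krt18, at 12.7 to 23.1 CPM in NaCl and 7.98 to 8.79 CPM in H89 tumors (log2 fold change -1.04 ± 0.23 SE, edgeR adjusted p = 0.0653), and for Epcam, at 0 to 0.0369 CPM and 0.0939 to 1.16 CPM, which lay below the filter. The part of these markers in the results was not tested. H89 tumor 1 stood apart in muscle RNA, with Acta1, the actin of skeletal muscle, at 12.1 CPM against 0.0359 to 0.55 CPM in the other 5 tumors.

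**Figure D1:**
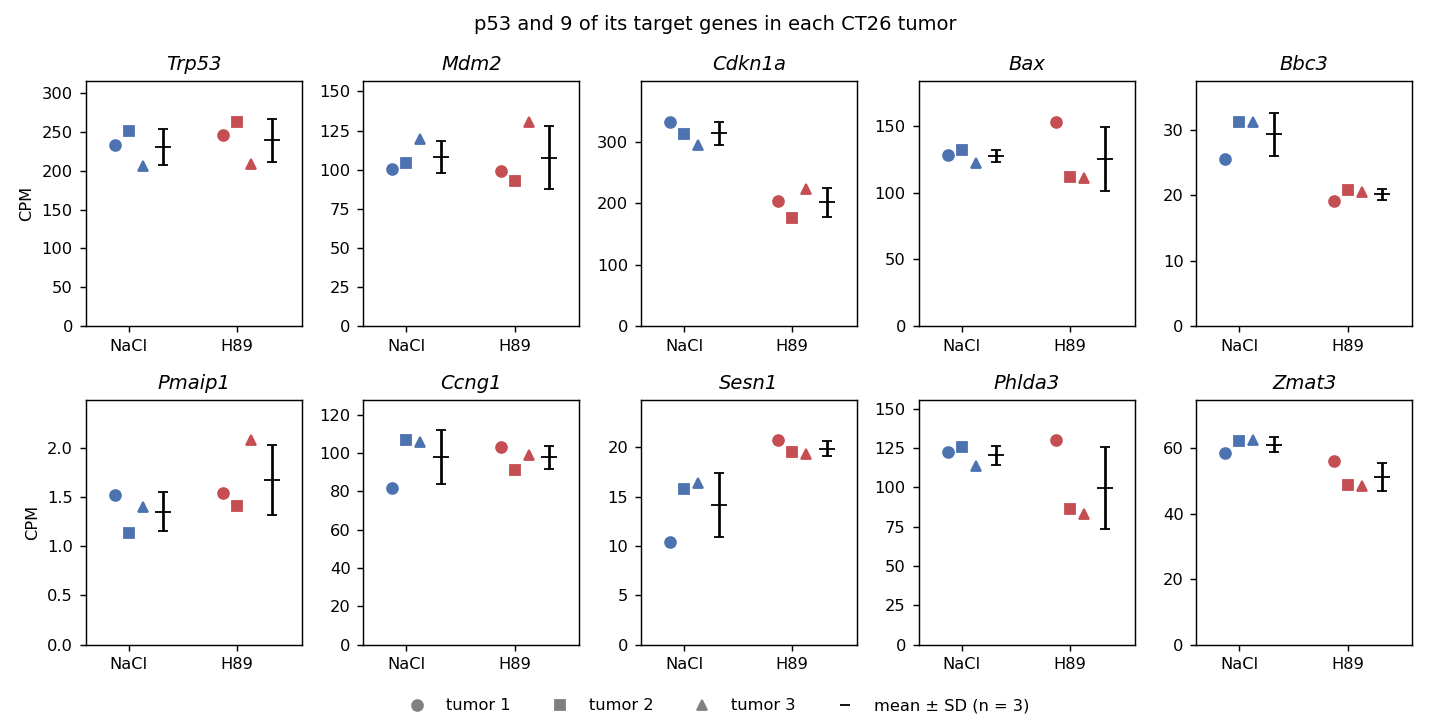
Level of each of the 10 genes in CPM (vertical axis, linear from 0) in the 3 NaCl tumors (blue) and the 3 H89 tumors (red), with black bars for mean ± SD. The groups are apart for Cdkn1a, Bbc3, Sesn1 and Zmat3, and overlap for the other 6 genes.

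Trp53 (chromosome 11 from 69580359 to 69591873, plus strand, GRCm38) was read at 234, 252 and 207 CPM in NaCl tumors 1 to 3 and at 247, 263 and 209 CPM in H89 tumors 1 to 3. The groups overlapped, and the lowest tumor of each group was its tumor 3. Mean levels were 231 ± 22.7 CPM (SD, n = 3) and 239.6 ± 28.0 CPM (SD, n = 3). The edgeR log2 fold change of H89 against NaCl was -0.013 with a 95% interval from -0.31 to 0.28 (Benjamini-Hochberg adjusted p = 0.963), and its sign changed with the filter, with quantile normalization and with the tumor left out. Levels of Trp53 RNA do not measure the p53 protein, which is mainly controlled by its breakdown. The counts of Trp53, Mdm2, Pmaip1 and Zmat3 were not whole numbers, with a distance of up to 0.492 from the nearest whole number, so some of their reads were divided with other sequences by the authors' quantification. Those of the other 6 genes lay within 0.01 of whole numbers.

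Mdm2 (chromosome 10 from 117688875 to 117710758, minus strand), the ubiquitin ligase that restrains p53, was at 100.4, 104 and 119.7 CPM in NaCl tumors and at 99.3, 93.0 and 131 CPM in H89 tumors. Tumor 3 was the highest of its group on both sides, and the H89 tumors spanned the whole range of the NaCl tumors. In edgeR the log2 fold change was -0.081 (95% interval -0.37 to 0.21, Benjamini-Hochberg adjusted p = 0.719). Of the regulators outside the 10 genes, Mdm4, a relative of Mdm2 that binds p53 and blocks its activity, was at 15.6, 17.0 and 18.9 CPM in NaCl tumors and at 19.9, 29.6 and 33.9 CPM in H89 tumors. All 3 H89 tumors were above all NaCl tumors for Mdm4, with a log2 fold change of 0.62 ± 0.17 (SE) that did not pass the edgeR test (adjusted p = 0.0915).

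Cdkn1a (chromosome 17 from 29090976 to 29100727, plus strand) had the smallest p of the 10 genes. This gene codes for p21, which binds cyclin-dependent kinases and holds cells before DNA replication. Its level was 333, 314 and 295 CPM in NaCl tumors and 204, 176 and 224 CPM in H89 tumors, so that the highest H89 tumor lay well below the lowest NaCl tumor. Means were 314 ± 18.7 CPM (SD, n = 3) and 201 ± 23.7 CPM (SD, n = 3), and the log2 fold change was -0.71 ± 0.11 (SE, edgeR Benjamini-Hochberg adjusted p = 0.0407). The exact two-sided permutation test gave p = 0.1, the smallest that 3 tumors against 3 allow. With any 1 tumor left out, the log2 fold change stayed between -0.77 and -0.62, but the edgeR adjusted p rose to between 0.0663 and 0.142, and 0 to 12 of all genes passed.

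Ccng1 (chromosome 11 from 40748552 to 40755311, minus strand), a cyclin that feeds back on p53 through Mdm2, overlapped between the groups. It was at 81.6, 107 and 106 CPM in NaCl tumors and at 103, 91.2 and 98.8 CPM in H89 tumors, where all H89 values lay inside the range of the NaCl values. The fitted log2 fold change was -0.068 (95% interval -0.34 to 0.20, edgeR adjusted p = 0.747).

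Bbc3 (chromosome 7 from 16308393 to 16318205, plus strand) codes for Puma, a protein that binds the survival proteins of the Bcl-2 family and so opens the way to cell death. It was at 25.5, 31.2 and 31.2 CPM in NaCl tumors and at 19.2, 20.8 and 20.5 CPM in H89 tumors. The H89 tumors were close to each other and all below the NaCl tumors, with means of 20.1 ± 0.863 CPM (SD, n = 3) and 29.3 ± 3.29 CPM (SD, n = 3). A log2 fold change of -0.61 ± 0.10 (SE) passed the edgeR test (Benjamini-Hochberg adjusted p = 0.0417), and the exact permutation p was again the smallest possible, 0.1. Leaving out any 1 tumor kept the log2 fold change between -0.69 and -0.57 and raised the edgeR adjusted p to between 0.0688 and 0.145. With quantile normalization in limma the adjusted p was 0.05001, just above the threshold of 0.05.

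The other cell death genes did not pass the test. Bax (chromosome 7 from 45461697 to 45466898, minus strand), which forms pores in the outer mitochondrial membrane, was at 129, 132 and 123 CPM in NaCl tumors and at 153, 112 and 111 CPM in H89 tumors. H89 tumor 1 was the highest of all 6 for Bax and the other 2 H89 tumors were the lowest, giving a log2 fold change of -0.088 (95% interval -0.44 to 0.26, edgeR adjusted p = 0.751). Without H89 tumor 1 it was -0.29 (edgeR adjusted p = 0.0986). Exons of Bax share 192 bases with those of Gm45808 on the same strand, and those of Cdkn1a share 273 bases with AC167363.2 on the opposite strand, and neither of these overlapping genes was analysed here.

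Phlda3 (chromosome 1 from 135766119 to 135769136, plus strand), which competes with the survival kinase Akt for membrane lipids, had the same pattern among tumors as Bax. Its level was 122, 125 and 113 CPM in NaCl tumors and 129.9, 86.3 and 82.7 CPM in H89 tumors. H89 tumor 1 was thus above every NaCl tumor, and H89 tumors 2 and 3 were below every NaCl tumor. The log2 fold change of -0.33 (95% interval -0.77 to 0.11, edgeR adjusted p = 0.312) became -0.61 without H89 tumor 1 (edgeR adjusted p = 0.0663) and -0.19 without H89 tumor 3 (edgeR adjusted p = 0.574). H89 tumor 1 is the tumor with the muscle RNA described above, and the part of that RNA in these values was not tested.

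Pmaip1, which codes for the cell death protein Noxa and lies on chromosome 18, was the least abundant of the 10 genes. It was at 1.52, 1.13 and 1.4 CPM in NaCl tumors and at 1.53, 1.4 and 2.07 CPM in H89 tumors, from 31 to 64 estimated counts per tumor. The groups overlapped, H89 tumor 3 was the highest, and the 95% interval of its log2 fold change of 0.23 ran from -0.35 to 0.81 (edgeR adjusted p = 0.603).

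Zmat3 (chromosome 3 from 32334792 to 32366014, minus strand), an RNA-binding zinc finger protein, was at 58.5, 62.3 and 62.4 CPM in NaCl tumors and at 56.2, 48.8 and 48.4 CPM in H89 tumors. All H89 tumors were below all NaCl tumors, by a narrow margin for H89 tumor 1. Its log2 fold change was -0.32 ± 0.10 (SE) with an unadjusted p of 0.0134 and a Benjamini-Hochberg adjusted p of 0.113 in edgeR, while DESeq2 gave an adjusted p of 0.0491.

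Sesn1 (chromosome 10 from 41809935 to 41908424, plus strand), a sestrin that restrains the growth kinase complex mTORC1, lay in the opposite direction. Its level was 10.4, 15.7 and 16.4 CPM in NaCl tumors and 20.7, 19.5 and 19.3 CPM in H89 tumors. The H89 tumors were tightly grouped above the NaCl tumors, of which tumor 1 was the lowest. The log2 fold change was 0.42 ± 0.17 (SE, unadjusted p = 0.0400, edgeR adjusted p = 0.181), and it was 0.25 without NaCl tumor 1.

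**Figure D2:**
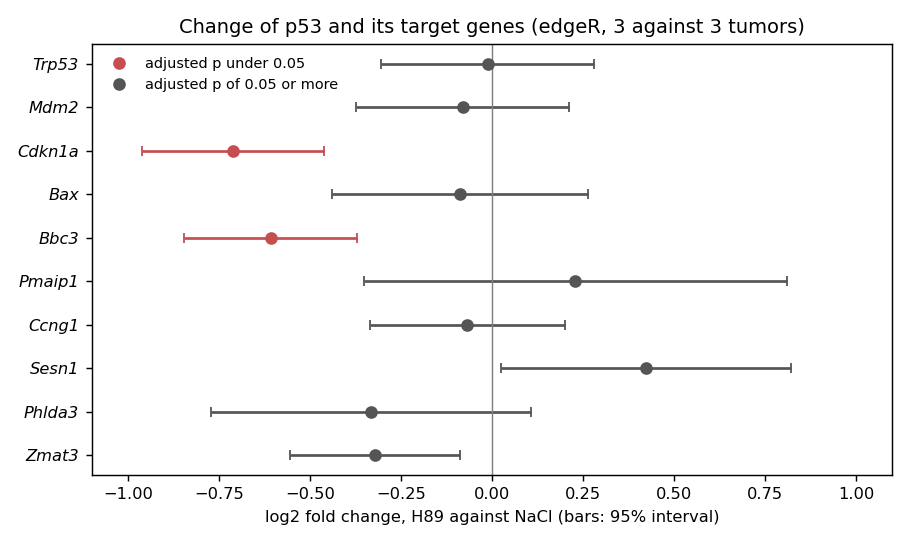
Log2 fold change of H89 against NaCl (horizontal axis) for each of the 10 genes, with 95% intervals from edgeR. Cdkn1a at -0.71 and Bbc3 at -0.61 (red) have an adjusted p under 0.05, and the intervals of Trp53, Mdm2, Bax, Pmaip1, Ccng1 and Phlda3 include 0.

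Counted over the 10 genes, 2 passed the edgeR threshold of an adjusted p under 0.05, both lower in H89 tumors, where 1.59% of all 13118 genes passed and 0.724% passed on the lower side. At an unadjusted p under 0.05 there were 4 of the 10 genes (Cdkn1a, Bbc3, Zmat3 and Sesn1), and 25.0% of all genes. All H89 tumors lay below all NaCl tumors for 3 of the 10 genes and above them for 1. Over all tested genes these shares were 10.0% lower and 20.5% higher in CPM, and 15.5% lower and 15.2% higher after division by the TMM factors, which left the 4 genes as they were. Of the 10 log2 fold changes 8 were below 0, as were 6480 of the 13118 over all tested genes. Trp53, Mdm2 and Bax, among the 8, changed sign in some settings. The median of the 10 was -0.084 beside 0.0040 over all tested genes. Without H89 tumor 1 the median was -0.22.

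Scaled by the merged length of all annotated exons, as CPM per kilobase, the levels of the genes were set beside each other. The transcripts present may be shorter than this length, so the order of the genes depends on the annotation. Cdkn1a was the highest of the 10 in NaCl tumors at 88.3 ± 5.26 CPM per kilobase (SD, n = 3), followed by Bax at 81.1 ± 3.09, Phlda3 at 77.2 ± 3.98 and Trp53 at 57.1 ± 5.62. In H89 tumors Cdkn1a was the fourth at 56.7 ± 6.66 CPM per kilobase, behind Bax at 79.7 ± 15.3, Phlda3 at 63.9 ± 16.8 and Trp53 at 59.2 ± 6.91, and the tumors of Cdkn1a, Phlda3 and Trp53 overlapped. In NaCl tumors Cdkn1a overlapped with Bax, and Bax with Phlda3, while Trp53 lay apart below them. Over all 6 tumors Ccng1 with 23.2 to 30.4 and Mdm2 with 18.3 to 25.7 CPM per kilobase overlapped, as did Zmat3 with 4.24 to 5.46 and Sesn1 with 2.61 to 5.20. Bbc3 with 9.02 to 14.7 and Pmaip1 with 0.413 to 0.759 CPM per kilobase were apart from their neighbours in the order.

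The wider pathway was read from a list of 79 further genes, of which 71 passed the filter on low counts and were tested. With edgeR 0 of the 71 passed the adjusted threshold, 15 had an unadjusted p under 0.05 (7 higher and 8 lower), and DESeq2 called 4 of 76, Mdm4, Gadd45a, Sesn2 and Ddb2, where it called 7.39% of all 18837 genes. The share of 15 in 71, 21.1%, is close to the 25.0% of all genes. Their median log2 fold change was -0.023.

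Among the activators and cofactors of p53, 4 of 11 tested genes had an unadjusted p under 0.05, all with higher values in H89 tumors, where 13.1% of all genes had such a p on the higher side. The median log2 fold change was 0.18. The pair with the smallest p were Trp53bp1, a protein recruited to DNA breaks, and Ep300, an acetyltransferase that acts on p53 and on histones. Trp53bp1 was at 30.6, 31.0 and 31.8 CPM in NaCl tumors and at 37.3, 42.0 and 43.2 CPM in H89 tumors (log2 fold change 0.32 ± 0.079 SE, edgeR adjusted p = 0.0800). Ep300 was at 83.0 to 87.9 CPM and at 97.8 to 120.4 CPM (log2 fold change 0.29 ± 0.079 SE, edgeR adjusted p = 0.0890). For both genes all H89 tumors were above all NaCl tumors, which held for 20.5% of all tested genes in CPM and 15.2% after division by the TMM factors. Cdkn2a, whose product p19Arf blocks Mdm2, was at 0.241 to 0.453 CPM in the 6 tumors and was too low to be tested. Of the 5 inhibitors, Mdm4 was described above and Rchy1, another ubiquitin ligase, had a log2 fold change of -0.098 (edgeR adjusted p = 0.546).

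Over all genes 25.0% had an unadjusted p under 0.05 in edgeR, and among the further arrest genes 1 of 5 tested did. This was Gadd45a, a stress gene that slows the entry into mitosis, at 28.7, 37.3 and 62.0 CPM in NaCl tumors and at 20.3, 28.4 and 26.7 CPM in H89 tumors. All H89 tumors were below all NaCl tumors, by a small margin, and the NaCl tumors differed widely among themselves (log2 fold change -0.83 ± 0.26 SE, edgeR adjusted p = 0.110). Without NaCl tumor 3 it was -0.47 (edgeR adjusted p = 0.218). Plk2, a kinase of the same response, had a log2 fold change of -0.36 and overlapped between the groups (edgeR adjusted p = 0.257), and it was -0.14 without NaCl tumor 3 (edgeR adjusted p = 0.588). Of 10 further cell death genes, Tnfrsf10b, a receptor of the death ligand Trail, and Siva1 were below all NaCl tumors in all H89 tumors. Their log2 fold changes were -0.28 and -0.26 (edgeR adjusted p = 0.152 and 0.163). Over all tested genes 10% lay lower in this way in CPM, and 15.5% after division by the TMM factors.

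Genes listed as targets in metabolism and in DNA repair had their smallest p-values in opposite directions. Whether p53 acts on the listed genes in these mouse tumors was not tested. Sesn2, the stress-induced relative of Sesn1, was at 48.1, 53.1 and 52.0 CPM in NaCl tumors and at 43.1, 38.6 and 34.0 CPM in H89 tumors (log2 fold change -0.47 ± 0.12 SE, edgeR adjusted p = 0.0813). It thus lay on the other side from Sesn1. Gpx1, which removes peroxides, had a log2 fold change of -0.33 (edgeR adjusted p = 0.153). Ddb2, which recognises ultraviolet damage, was at 7.30, 7.50 and 6.63 CPM in NaCl tumors and at 11.1, 12.1 and 10.7 CPM in H89 tumors (log2 fold change 0.59 ± 0.13 SE, edgeR adjusted p = 0.0669). Ercc5, an endonuclease of the same repair pathway, had a log2 fold change of 0.42 (edgeR adjusted p = 0.106). For both repair genes the H89 tumors were all above the NaCl tumors. Of all tested genes 20.5% lay higher in this way in CPM, and 15.2% after division by the TMM factors. An unadjusted edgeR p under 0.05 was found for 2 of 9 metabolic genes, 2 of 6 repair genes and 25.0% of all genes. Exons of Ddb2 share 652 bases with Acp2 and those of Trp53bp1 share 2130 bases with Tubgcp4, each on the opposite strand, and the sources used here do not say whether counting used the strand.

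Of 13 further targets, the smallest p-values were those of Zfp365 and Rps27l, with log2 fold changes of -0.24 and -0.25 (edgeR adjusted p = 0.120 and 0.180). Rps27l, which codes for a ribosomal protein, is the pathway gene besides Cdkn1a whose promoter window held a 20-base site 1 base off the consensus. It was at 58.7, 68.8 and 69.6 CPM in NaCl tumors and at 61.2, 57.7 and 53.9 CPM in H89 tumors, and the groups overlapped. A further group holds 12 cell cycle genes that p53 lowers through p21 and the DREAM repressor complex. None of the 12 had an adjusted or unadjusted p under 0.05 in edgeR, where 1.59% and 25.0% of all tested genes did. DESeq2 called 0 of the 12 and 7.39% of all genes. The median log2 fold change of the 12 was 0.076. The pair with the smallest p were the proliferation marker Mki67, at 204, 237 and 255 CPM in NaCl tumors and 246, 319 and 287 CPM in H89 tumors, and the mitotic kinase Plk1, with log2 fold changes of 0.22 and 0.26 (edgeR adjusted p = 0.259 and 0.292).

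**Figure D3:**
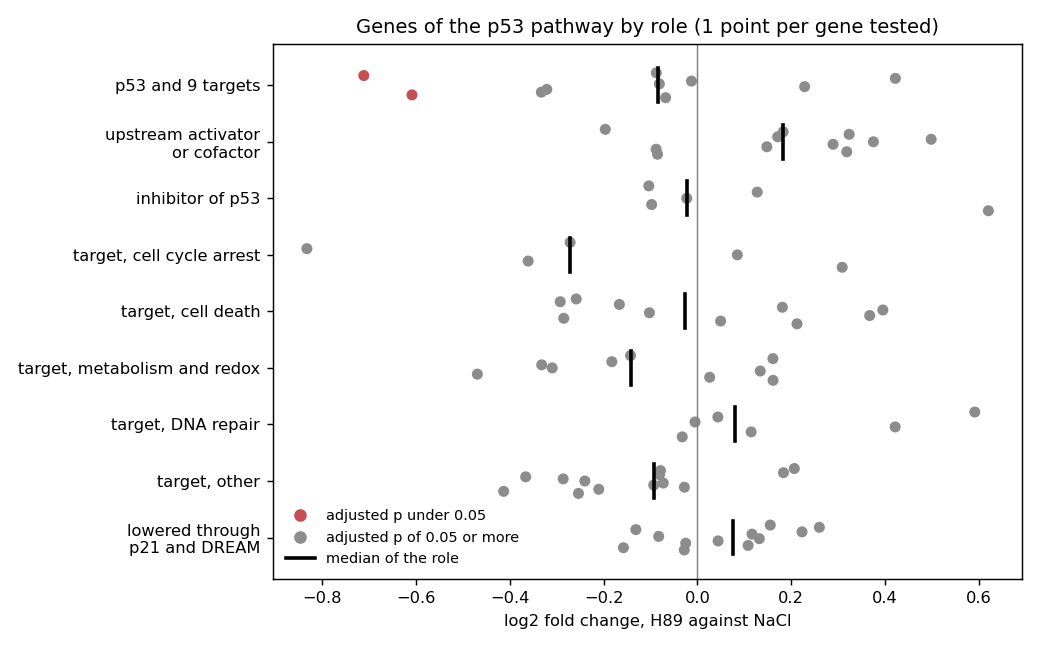
Log2 fold change of H89 against NaCl (horizontal axis) of 81 p53 pathway genes by role, 1 point per gene and a black bar at the median of each role. Only Cdkn1a and Bbc3 (red) have an adjusted p under 0.05 in edgeR, and the median is highest for the upstream activators at 0.18.

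The pathway genes whose profile over the 6 tumors was nearest to that of Trp53 were Cdc20, Fdxr and Xpc. After each log2(CPM + 0.5) profile was centred on its mean, their root mean square distances from Trp53 were 0.0588, 0.0866 and 0.0975. Cdc20, a mitotic regulator, was at 127, 138 and 123 CPM in NaCl tumors and at 136, 140.4 and 122 CPM in H89 tumors, and like Trp53 it was lower in tumor 3 than in tumors 1 and 2 of each group. Its log2 fold change was -0.028 (edgeR adjusted p = 0.885), that of Fdxr, a mitochondrial reductase, 0.026 (edgeR adjusted p = 0.934) and that of Xpc, a sensor of DNA damage, -0.032 (edgeR adjusted p = 0.878), and the sign of each changed with the settings.

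Markers of other cells were read beside Cdkn1a and Bbc3, and Cdsn was the one that passed the adjusted edgeR threshold. All 8 T cell markers tested had a log2 fold change above 0, with a summed level of 14.9 to 33.1 CPM in NaCl and of 31.3 to 78.2 CPM in H89 tumors, and 0 passed the adjusted edgeR threshold while 5 had an unadjusted p under 0.05 and DESeq2 called 3. Over all genes 13.1% had such a p on the higher side, and DESeq2 called 7.39%. Ptprc, found on all leukocytes, was at 24.1, 31.2 and 29.3 CPM in NaCl tumors and at 47.3, 48.6 and 83.7 CPM in H89 tumors (log2 fold change 1.01 ± 0.21 SE, edgeR adjusted p = 0.0547). Ptprc is 1 of 4 leukocyte genes read, of which 3 had a log2 fold change above 0 and 1 below 0, with a median of 0.19. Their summed level was 354 to 418 CPM in NaCl and 373 to 545 CPM in H89 tumors, and overlapped.

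The 10 interferon-stimulated genes summed to 421 to 721.4 CPM in NaCl and to 721.7 to 1363 CPM in H89 tumors, so that the groups nearly touched. The 6 fibroblast genes summed to 2429 to 2589 CPM and to 2954 to 3502 CPM. In edgeR 0 genes of either list passed the adjusted threshold. An unadjusted p under 0.05 on the higher side was found for 6 of the 10, 3 of the 6 and 13.1% of all genes. DESeq2 called 3 of the 10, 1 of the 6 and 7.39% of all genes. Macrophage genes summed to 1789 to 2930 CPM in NaCl and to 2219 to 2972 CPM in H89 tumors, and overlapped, as did the endothelial genes with 80.5 to 140.0 CPM and 70.1 to 113 CPM. Skeletal muscle genes were at 0.932 to 2.34 CPM in NaCl and at 1.20 to 18.9 CPM in H89 tumors, and adipocyte genes at 10.7 to 34.4 CPM and 13.6 to 25.4 CPM. Among the 9 keratinocyte genes that were listed, 7 were under 0.5 CPM in every tumor, with Krt1 and Ivl at 0 throughout, and the sum of 44.0 to 71.8 CPM in NaCl and 14.5 to 18.0 CPM in H89 tumors was mostly Cdsn, which fell by 2.15 on the log2 scale (edgeR adjusted p = 0.0288). The part of these cell types in the lower Cdkn1a and Bbc3 was not tested.

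**Figure D4:**
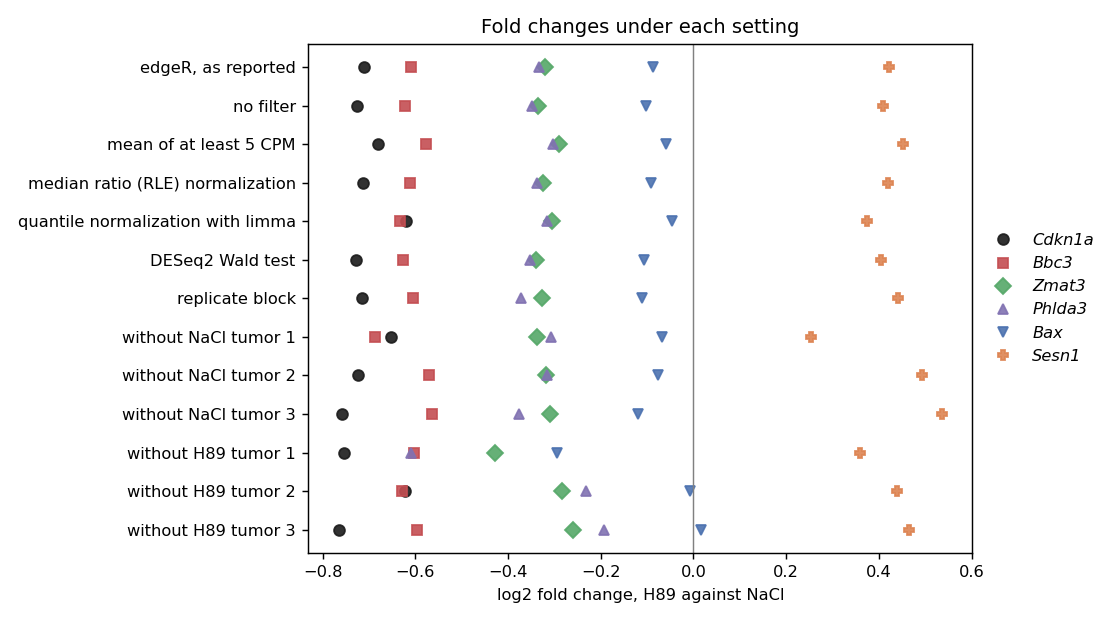
Log2 fold change of H89 against NaCl (horizontal axis) for 6 of the genes under the reported edgeR fit and each of the 12 alternatives (vertical axis). Cdkn1a stays between -0.77 and -0.62 and Bbc3 between -0.69 and -0.57, whereas Phlda3 and Bax move most when H89 tumor 1 is left out.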

How the data were processed

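RNA of 3 NaCl and 3 H89 tumors was sequenced on the BGISEQ-500 platform. The authors deposited 1 table of estimated counts per gene, listed by symbol; it is called TPM, but its totals of 27067349 to 31958793 per tumor are not those of TPM. The submitters' processing notes name kallisto, DESeq2 and GRCm38, and versions are not given in the sources used here. Of the gene columns, 149 are recorded singly by name, and the remaining 23408 were treated alike. Counts were rounded for edgeR 4.0.16 in R 4.3.3 (TMM, quasi-likelihood test, treatment as the only term). The test was also run on simulated data. The filter was a mean of at least 0.5 CPM, and p-values were adjusted over 13118 genes with the Benjamini-Hochberg method. Exact two-sided permutation tests used log2(CPM + 0.5). The fit was repeated unfiltered, at a minimum mean of 5 CPM, with median ratio and quantile normalization (limma 3.58.1), with DESeq2 1.42.0, with a replicate block and without each tumor. The counts of non-overlapping genes after division by the TMM factors, and the colon epithelial markers, were added after seeing the data. Gene positions are from GENCODE M21, which matched 23007 of the 23557 symbols. Named genes were the 10 members, the pathway genes passing the test, the 2 of each role with the smallest p, the 3 nearest to Trp53, overlapping genes, and Cdkn2a, Mdm4 and Trp63. The members and lists were chosen with earlier results of these data known. Of the pathway list, Trp53cor1 and Ptprv were not analysed here, and Cdkn2a, Trp63, Trp73, Rprm, Perp and Spata18 were below the filter. Promoter windows of Pmaip1 and Zmat3 were not used here.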

Additional observations from a re-analysis of the deposited data

How the results depend on the processing

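The directions of Cdkn1a, Bbc3, Zmat3, Sesn1, Phlda3 and Ccng1 were kept under all 12 alternatives, with adjusted p-values from 5.67e-07 (DESeq2) to 0.142 for Cdkn1a and from 1.28e-04 (DESeq2) to 0.145 for Bbc3. Quantile normalization with limma gave 80 genes past the adjusted threshold, 1 of the 10 members and 1 pathway gene, Cdkn1a in both cases. DESeq2, run on 18837 genes without the CPM filter, gave 1392 genes and 7 pathway genes, of which Cdkn1a, Bbc3 and Zmat3 are members. Its own default filtering was kept, and any gene left without an adjusted p was counted as not called. With 1 tumor left out, 0 to 12 genes, 0 members and 0 pathway genes passed in edgeR, while 2 to 5 members had an unadjusted p under 0.05, and the median log2 fold change of the members ran from -0.22 (without H89 tumor 1) to -0.048. A replicate block gave 0 genes, 0 members and 0 pathway genes (4 members at an unadjusted p under 0.05), with an adjusted p of 0.0640 for Cdkn1a and Bbc3. Deviations from the group means correlated at 0.16, 0.062 and -0.025 for tumors of equal number, 1 to 3, and at -0.37 to 0.35 for unlike numbers. With 3 tumors per group these values cannot decide whether the tumors were paired. The cause of these changes was not tested. Leaving out 1 tumor removes its values and also lowers the number of tumors, which cannot be told apart here.

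Near 0 the sign changed. Trp53 was 0.017 with a mean of at least 5 CPM, 0.079 with quantile normalization and -0.089 to 0.098 with 1 tumor left out. Cdc20 was 0.0024, 0.030 and -0.077 to 0.052 in the same settings. Fdxr was -0.053 and Pmaip1 -0.078 with quantile normalization. With 1 tumor left out, Fdxr ran from -0.10 to 0.13, Xpc from -0.072 to 0.024, Mdm2 from -0.21 to 0.015 and Bax from -0.29 to 0.016. Without changing sign, Pmaip1 ran from 0.076 (without H89 tumor 3) to 0.34, Ccng1 from -0.17 (without NaCl tumor 1) to -0.014, Rchy1 from -0.16 (without NaCl tumor 2) to -0.059, Plk1 from 0.16 (without NaCl tumor 3) to 0.38 and Mki67 from 0.14 (without H89 tumor 2) to 0.29 with 1 tumor left out. With 3 tumors per group the spread between tumors and, for Pmaip1, 31 to 64 counts limit the precision.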

Other observations

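Trp63, the p53 relative that marks basal epithelium, lay below the filter on low counts with 0.172, 0.259 and 0.323 CPM in NaCl tumors and 0.525, 1.06 and 0.614 CPM in H89 tumors. All H89 tumors were above all NaCl tumors (exact two-sided permutation p = 0.1, the smallest possible for 3 against 3), whereas Krt14, another gene of basal epithelium, was at 0.108 to 0.172 CPM and at 0.0323 to 0.105 CPM. Ephx1, an epoxide hydrolase and p53 target, shared with Bax and Phlda3 the order of the H89 tumors, with 155 CPM in tumor 1, 110.0 CPM in tumor 2 and 101 CPM in tumor 3, against 116 to 123 CPM in NaCl tumors. It was singled out after its values were seen.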
